A study of Rattus norvegicus with 24 samples.

Results

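The receptors for serotonin, dopamine, noradrenaline and acetylcholine were followed in rat brain tissue after traumatic brain injury (TBI). They were chosen by gene symbol, with earlier results of these data known. Every named locus was taken whose symbol follows the pattern of a serotonin (Htr), dopamine (Drd), adrenergic (Adra, Adrb), muscarinic (Chrm) or nicotinic (Chrn) receptor. Where a symbol had several loci, the locus with the highest mean stood for it. The choice gave 47 genes of the 25650 gene names in the deposited annotation: 14 for serotonin, 4 for dopamine, 8 for noradrenaline, 5 muscarinic and 16 nicotinic. The dopamine receptor that the annotation spells in capitals (DRD2) does not match the pattern and is not among the 47.

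All animals were adult male Sprague-Dawley rats. The TBI rats had a lateral fluid-percussion injury, were scanned by MRI to find those with a chronic inflammatory rim around the lesion, and were sampled 3 months after the injury. The sham-operated rats had the anesthesia and surgery without the impact. From each of 6 TBI and 6 sham-operated rats the perilesional cortex and the ipsilateral thalamus were dissected by hand from 1 coronal slice, so each of the 4 groups held 6 polyadenylated RNA libraries, and each rat gave 1 library to each region.

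These receptors receive the diffuse projections that set arousal, attention and reward signalling, from the raphe, the locus coeruleus, the midbrain dopamine neurons and the cholinergic basal forebrain and brainstem. All but the nicotinic receptors and the Htr3 subunits couple to G proteins: the beta-adrenergic, Drd1-like, Htr4, Htr6 and Htr7 receptors raise cyclic AMP, the Adra2, Drd2-like, Htr1, Chrm2 and Chrm4 receptors lower it, and the Adra1, Htr2, Chrm1, Chrm3 and Chrm5 receptors act through phospholipase C. Nicotinic receptors are ion channels built of several subunits, and the pairing of alpha4 with beta2 subunits makes the common high-affinity type of the brain, which is dense in thalamus.

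Values are normalized counts, which are fragment counts divided by the authors' size factor for the library. The libraries held 30568927 to 54608922 recovered fragments. Groups were compared by limma on log2(normalized count + 1) over all named loci with a mean of at least 10, and a receptor counted as called where its Benjamini-Hochberg adjusted p lay under 0.05. The pseudocount makes the fold changes of genes with low counts too small. Tissue from neighbouring structures varied between libraries. Adora2a, a gene of striatal neurons, reached 1612 in the cortex library of TBI rat 24 against 126 to 167 in the other 5 TBI cortex libraries, and 431 to 903 in the thalamus libraries of sham rats 26, 32 and 38 against 182 to 307 in the other 9. Ttr, a gene of choroid plexus, exceeded 5000 in 6 libraries: TBI cortex rat 45, sham cortex rats 26 and 34, TBI thalamus rat 45 and sham thalamus rats 34 and 50. The labelled regions carried their markers, since all 8 listed thalamic relay genes were higher in sham thalamus and 7 of 8 tested cortical projection genes were higher in sham cortex.

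After TBI, the receptors called were mostly lower. More of them were called in thalamus than in cortex, as were more of all tested loci (5516 against 4531). In the perilesional cortex 38 of the 47 receptors were tested, of which 10 were lower, 1 was higher and 27 were not called, where 14.9% of all 15493 tested loci were lower and 14.3% higher. In the ipsilateral thalamus 39 were tested, of which 15 were lower, 1 was higher and 23 were not called, where 20.9% of all 15564 tested loci were lower and 14.5% higher. With TMM scaling the lower calls among all thalamic loci numbered 2357 of 5153, in place of 3257 with the deposited scaling, and those among the receptors 14 of 15. The median log2 fold change of the tested receptors was -0.15 in cortex (all loci -0.0096) and -0.27 in thalamus (all loci -0.023). In bulk tissue, fewer cells of a type and less RNA per cell cannot be told apart.

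**Figure D1:**
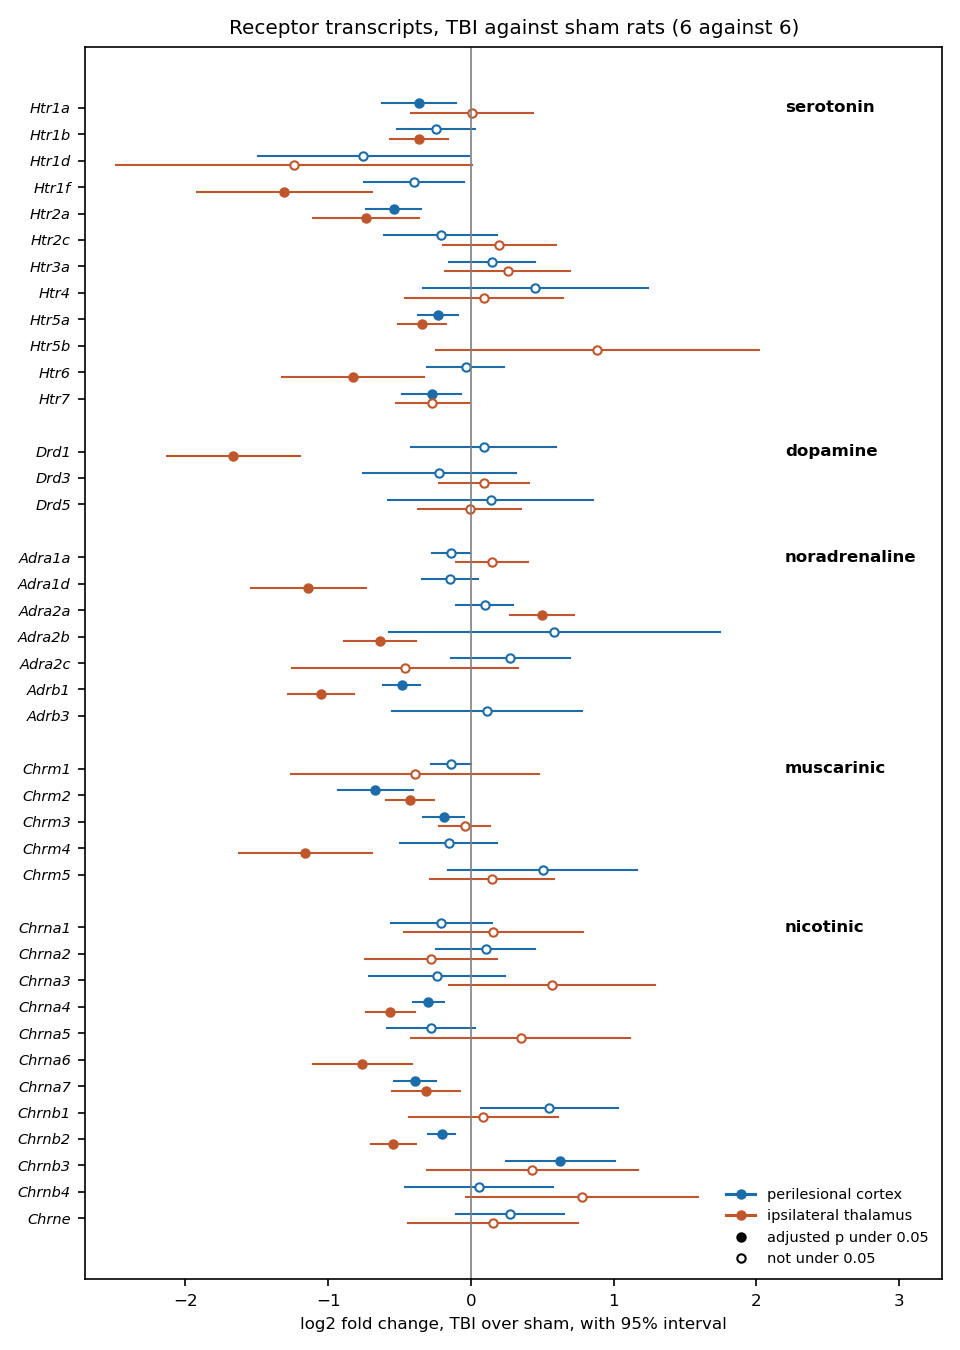
Log2 fold change of the tested receptors reported here in TBI over sham-operated rats (x axis) with its 95% interval, in cortex (blue) and thalamus (red), grouped by transmitter on the y axis; filled points have an adjusted p under 0.05. The filled points lie left of 0 apart from Chrnb3 in cortex and Adra2a in thalamus, and the lowest is Drd1 in thalamus at -1.66.

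Of the 20 receptors called in either region, 7 were called in both: Adrb1, Chrm2, Chrna4, Chrna7, Chrnb2, Htr2a and Htr5a, all lower. They made up 7 of the 11 called in cortex and 7 of the 16 called in thalamus. The share of all loci called in both regions was not counted. The cortex calls of Chrnb2 and Htr5a and the thalamus call of Chrna7 were lost without the libraries rich in Ttr. The thalamus call of Htr2a was lost without those rich in Adora2a. The receptors called with no overlap between the 6 TBI and the 6 sham values numbered 5 in cortex, where 12.3% of all loci met both criteria, and 11 in thalamus, where 18.1% did. Cell type markers were compared between the same groups. In both regions 10 of 12 neuronal markers were lower after TBI. Their summed level was 304718 to 400672 in TBI cortex against 431253 to 466132 in sham cortex, and 219451 to 274561 against 327517 to 389701 in thalamus. Microglial markers were higher, 11 of 12 in cortex and 12 of 12 in thalamus, with sums of 23309 to 26623 against 16705 to 17694 in cortex and 36057 to 46444 against 17886 to 23170 in thalamus. Astrocyte markers were higher at 4 of 9 in each region and lower at 2 in cortex, with sums of 340276 to 385605 against 316265 to 337949 in cortex and 326925 to 378990 against 233334 to 248159 in thalamus. Meninges and fibroblast markers were higher at 6 of 7 in cortex (17834 to 47691 against 11822 to 17989), and in thalamus their lowest adjusted p was 0.0935, at Ogn. Endothelium and pericyte markers were higher at 2 of 8 in cortex and 5 of 8 in thalamus (23566 to 29394 against 19323 to 24328), and oligodendrocyte markers at 3 of 6 in cortex. Lymphocyte markers were higher at 1 of 4 tested in cortex (sums of 1312 to 1630 against 739.5 to 924.2) and at the 1 tested in thalamus (2532 to 4194 against 711.3 to 1090). Cd4 made up most of these sums, at 1243 to 1525 against 688.9 to 882.4 in cortex and 2511 to 4153 against 698.4 to 1063 in thalamus. The T cell gene Cd3e was too low to test in thalamus, at 1.88 to 10.2 against 1.06 to 11.3, so the sums do not show a rise of lymphocytes as such. The part of these cell types in the receptor results was not tested.

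Noradrenaline receptors held the receptor with the lowest p of the 47 in both regions, Adrb1, which couples noradrenaline to cyclic AMP in neurons. In cortex Adrb1 ran from 796.8 over a median of 832.2 to 868.8 in TBI rats and from 1036 over 1197 to 1292 in sham-operated rats. It was 1.40-fold lower (log2 fold change -0.48, SE 0.06, adjusted p = 6.84e-05). In thalamus Adrb1 ran from 222.2 over 280.4 to 295.7 in TBI rats and from 470.6 over 532.3 to 686.6 in sham-operated rats. It was 2.07-fold lower there (log2 fold change -1.05, SE 0.11, adjusted p = 7.50e-06). Every TBI library lay below every sham library in both regions.

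Adra1d, an alpha1 receptor that signals through phospholipase C, was lower in thalamus, where TBI rats had 136.2, 264 and 269.9 (lowest, median and highest) and sham-operated rats 378.1, 494.8 and 577.5. The difference was larger than the spread of either group (log2 fold change -1.14, SE 0.19, adjusted p = 3.93e-04). The 6 TBI values lay below the 6 sham values, with rats 24 and 45 at 146.7 and 136.2 and the other 4 TBI rats between 263.9 and 269.9. In cortex Adra1d ran from 1451 over 1827 to 2094 in TBI rats and from 1637 over 2006 to 2262 in sham-operated rats, groups that overlapped (log2 fold change -0.15, 95% interval -0.34 to 0.05, adjusted p = 0.252). The Adra1d span also holds an unnamed locus with a mean of 383.6 over the 24 libraries, so fragments there may be shared.

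Adra2a, the inhibitory alpha2 receptor that noradrenergic terminals also carry as an autoreceptor, was the receptor that rose in thalamus. Its values were 327.7, 383.6 and 527.3 in TBI rats and 259.2, 277.4 and 319.5 in sham-operated rats (lowest, median and highest). All 6 TBI values lay above all 6 sham values (log2 fold change 0.50, SE 0.11, adjusted p = 0.00235). In cortex Adra2a ran from 401.2 over 472.5 to 620.4 in TBI rats and from 403.8 over 455 to 485.4 in sham-operated rats, and was not called (log2 fold change 0.10, 95% interval -0.10 to 0.30, adjusted p = 0.460). The thalamic subtype Adra2b fell from a mean of 987 ± 162 to 633 ± 92.1 (SD, n = 6; log2 fold change -0.63, adjusted p = 8.59e-04), with some overlap between the groups. With all 24 libraries in 1 fit that call was lost (adjusted p = 0.251).

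Adra1a and Adra2c were not called in either region. Adra1a had 1969 ± 132 in sham and 1787 ± 150 in TBI cortex. Adra2c had 214 ± 53.2 in sham and 262 ± 83.7 in TBI cortex. Adrb3, the beta receptor of fat tissue, did not reach a mean of 10 in thalamus, was tested in cortex only and was not called there.

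Among the muscarinic receptors, Chrm2 fell in both regions. Chrm2 couples acetylcholine to inhibitory G proteins and is known as an autoreceptor on cholinergic terminals. In cortex it ran from 121.4 over 155.5 to 194 in TBI rats and from 219.4 over 230.9 to 314.3 in sham-operated rats (log2 fold change -0.67, SE 0.12, adjusted p = 0.00111). In thalamus it ran from 294.8 over 324 to 390.6 and from 411.8 over 435.8 to 476.4 (log2 fold change -0.43, SE 0.08, adjusted p = 8.16e-04). Neither region had a TBI library inside the sham range.

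Chrm4, the inhibitory muscarinic receptor of striatal and cortical neurons, was 2.24-fold lower in thalamus. It measured 52.57, 67.95 and 88.26 in TBI rats and 111.4, 137 and 289.3 in sham-operated rats there (log2 fold change -1.16, SE 0.22, adjusted p = 9.48e-04). The groups did not overlap, and the highest sham value belonged to rat 26, the thalamus library with the most Adora2a. Without the 3 sham libraries rich in Adora2a the log2 fold change of Chrm4 was -0.80 (adjusted p = 0.00904). In cortex Chrm4 ran from 980.9 over 1373 to 1843 in TBI rats and from 1116 over 1647 to 1981 in sham-operated rats (log2 fold change -0.16, 95% interval -0.50 to 0.19, adjusted p = 0.495). The Chrm4 span overlaps Mdk, a growth factor gene with a mean of 1372 over the 24 libraries.

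Chrm3 was lower in cortex by a small margin, with means of 3301 ± 288 after TBI and 3765 ± 307 after sham surgery (log2 fold change -0.19, adjusted p = 0.0442), and in thalamus the means were 1861 ± 239 and 1910 ± 154. The Chrm3 call in cortex held without TBI rat 56, TBI rat 63 or sham rat 32, and was lost without any 1 of the other 9 libraries, with log2 fold changes from -0.23 to -0.16 over the 12. It was also lost under TMM scaling (adjusted p = 0.0627), with no filter on low values (0.0557), with all 24 libraries in 1 fit (0.0716) and without the Ttr-rich libraries (0.191). Chrm1, the main cortical muscarinic receptor, had means of 7092 ± 681 in TBI and 7807 ± 532 in sham cortex and was not called. Chrm5 stayed under 65 normalized counts in every library, within the span of the abundant genes Aven and Ryr3.

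Of the nicotinic subunits, 3 of 11 tested were called lower and 1 higher in cortex, where 14.9% of all loci were lower and 14.3% higher. In thalamus 4 of 12 were called lower, where 20.9% of all loci were. Chrna4 and Chrnb2, whose products assemble into the high-affinity receptor, and Chrna7, whose product forms homomeric receptors, were lower in both regions, and Chrna6 was lower in thalamus. The RefSeq promoters of Chrna4 and Chrnb2 are shown with those of Adrb1 and Chrm2, since these 4 genes had no overlap between TBI and sham-operated rats in either region. The 250 bases before the annotated start are given 5′ to 3′ on the gene's strand in GRCr8, with GC boxes (GGGCGG or its reverse complement CCGCCC) in capitals. The Adrb1 window lies at chr1:265776853-265777102, plus strand, that of Chrm2 at chr4:65982200-65982449, plus strand, that of Chrna4 at chr3:188534527-188534776, minus strand, and that of Chrnb2 at chr2:177487307-177487556, minus strand.
Adrb1: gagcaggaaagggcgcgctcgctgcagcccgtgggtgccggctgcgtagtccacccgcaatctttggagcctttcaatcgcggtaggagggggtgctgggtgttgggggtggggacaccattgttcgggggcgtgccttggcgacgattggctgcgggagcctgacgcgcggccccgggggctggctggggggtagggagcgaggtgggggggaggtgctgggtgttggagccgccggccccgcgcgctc
Chrm2: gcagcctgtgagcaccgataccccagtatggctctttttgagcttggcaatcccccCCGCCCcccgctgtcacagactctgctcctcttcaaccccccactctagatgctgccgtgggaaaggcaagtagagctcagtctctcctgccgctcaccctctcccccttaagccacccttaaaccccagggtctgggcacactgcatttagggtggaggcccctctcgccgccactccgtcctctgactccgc
Chrna4: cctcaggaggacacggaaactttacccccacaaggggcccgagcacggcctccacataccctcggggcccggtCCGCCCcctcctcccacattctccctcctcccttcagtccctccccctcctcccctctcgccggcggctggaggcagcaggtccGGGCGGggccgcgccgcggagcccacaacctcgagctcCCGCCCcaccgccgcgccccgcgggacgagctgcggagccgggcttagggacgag
Chrnb2: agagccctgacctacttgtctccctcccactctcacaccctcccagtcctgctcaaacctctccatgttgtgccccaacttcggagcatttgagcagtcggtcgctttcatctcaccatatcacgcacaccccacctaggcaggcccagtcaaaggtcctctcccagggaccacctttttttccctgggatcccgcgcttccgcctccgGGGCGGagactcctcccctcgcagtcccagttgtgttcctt
These windows held 0 GC boxes for Adrb1, 1 for Chrm2, 3 for Chrna4 and 1 for Chrnb2. A promoter entry existed for 36 of the 47 receptors, of which 17 (47.2%) held a GC box against 30.5% of all 33469 promoters of that length. The cyclic AMP response element TGACGTCA was found in none of the 36 (1.59% of all promoters) and the TATA box TATAAA or TTTATA in 1 (2.78%, against 12.9% of all). These are matches of letters on either strand and not measured sites.

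Chrna4 in thalamus ran from 8539 over 10096 to 11940 in TBI rats and from 13408 over 15197 to 16613 in sham-operated rats. It was 1.48-fold lower (log2 fold change -0.57, SE 0.08, adjusted p = 1.19e-04). In cortex it ran from 2123 over 2328 to 2513 and from 2659 over 2884 to 3143, a 1.23-fold difference (log2 fold change -0.30, SE 0.05, adjusted p = 6.72e-04). Both regions showed complete separation of the 6 TBI from the 6 sham libraries.

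Chrnb2, the partner subunit, ran from 8241 over 10036 to 11050 in TBI thalamus and from 12493 over 14312 to 16173 in sham thalamus. The difference was 1.46-fold (log2 fold change -0.54, SE 0.07, adjusted p = 8.35e-05). In cortex it ran from 4153 over 4331 to 4776 in TBI rats and from 5047 over 5075 to 5173 in sham-operated rats (log2 fold change -0.20, SE 0.04, adjusted p = 0.00366). The groups stayed apart in both regions, and the 6 sham cortex values lay within a narrow band. The cortex call was lost without the 3 cortex libraries rich in Ttr (log2 fold change -0.18, adjusted p = 0.0556). The Chrnb2 span overlaps Adar, an RNA editing gene with a mean of 8518 over the 24 libraries.

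Chrna7 in cortex ran from 907 over 1014 to 1179 in TBI rats and from 1245 over 1331 to 1480 in sham-operated rats, without overlap (log2 fold change -0.39, SE 0.07, adjusted p = 7.61e-04). In thalamus it ran from 452.4 over 648.5 to 699.7 and from 616.8 over 793.3 to 821.6, and sham rat 32 lay inside the TBI range (log2 fold change -0.31, SE 0.11, adjusted p = 0.0383). That thalamic call was lost without TBI rat 22, 24 or 45 or sham rat 34, 38, 50 or 55, with log2 fold changes from -0.37 to -0.23 over the 12 libraries left out. It was also lost under TMM scaling and without the thalamus libraries rich in Ttr (log2 fold change -0.24, adjusted p = 0.199).

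Chrna6, a subunit known from dopaminergic and visual pathways, was read almost wholly in thalamus. It ran from 104.7 over 166.7 to 209.2 in TBI thalamus and from 233.4 over 258.9 to 315.3 in sham thalamus, without overlap (log2 fold change -0.76, SE 0.16, adjusted p = 0.00230). In cortex it reached at most 8.58 and was not tested. With all 24 libraries in 1 fit the thalamic call of Chrna6 was lost (adjusted p = 0.0593).

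Chrnb3, a subunit of habenular and dopaminergic neurons, was the only receptor called higher in cortex. It measured 333.7, 410 and 833.3 in TBI and 237.8, 299.7 and 338.5 in sham cortex (log2 fold change 0.63, SE 0.18, adjusted p = 0.0173). TBI rat 56 (333.7) lay below sham rat 50 (338.5), the other TBI values lay above the sham range, and the top value came from rat 45, one of the libraries rich in Ttr. Without the 3 cortex libraries rich in Ttr the log2 fold change was 0.36 (adjusted p = 0.0702), and with all 24 libraries in 1 fit the call was lost as well (adjusted p = 0.119).

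Chrna1, Chrna2, Chrnb1 and Chrne stayed under 90 normalized counts in every library and were called in neither region. Chrna3, Chrna5 and Chrnb4, which form a gene cluster on chromosome 8, were not called either and are described with the habenula. Chrna9, Chrnd and Chrng, with Drd4 and Htr3b, were at or under 3 fragments in all 24 libraries and were not detectable at this depth. Chrna10 and Htr2b were likewise too low to be tested in either region.

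**Figure D2:**
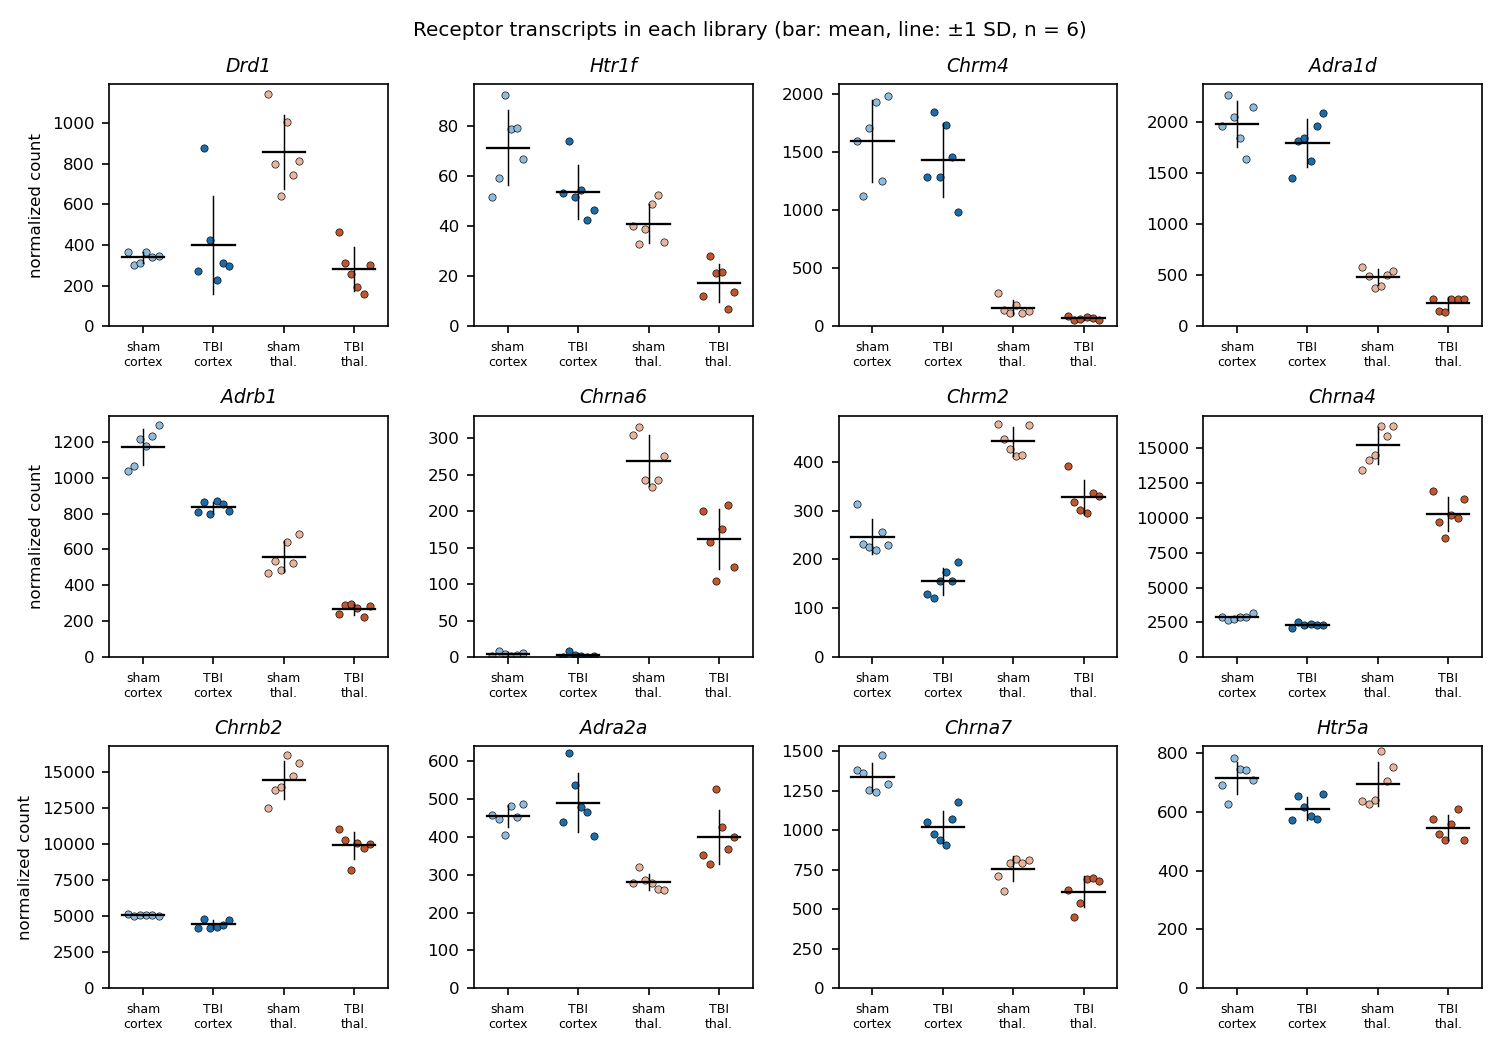
Normalized count (y axis, from 0) of the 12 receptors described library by library, 1 point per rat in each of the 4 groups, with the mean as a bar and 1 SD as a line. TBI points lie below all sham points in both regions for Adrb1, Chrm2, Chrna4 and Chrnb2, and the TBI cortex point of Drd1 at 875.8 is rat 24.

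Of the serotonin receptors, 4 of 11 tested were called lower in cortex, where 14.9% of all loci were, and 5 of 12 in thalamus, where 20.9% were. The other 7 in each region were not called, and 5 of the 12 in thalamus had a log2 fold change above 0. None was called higher by limma or by edgeR in either region, and 0 of them rose at an unadjusted p under 0.05. Htr2a, the excitatory receptor of cortical pyramidal neurons, and Htr5a, an inhibitory receptor, were lower in both regions.

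Htr5a in thalamus ran from 503.5 over 540.7 to 608.9 in TBI rats and from 627.4 over 671.7 to 806 in sham-operated rats, without overlap (log2 fold change -0.34, SE 0.08, adjusted p = 0.00357). In cortex it ran from 572.6 over 600.8 to 658.3 and from 626.1 over 724.7 to 782.2, where sham rat 32 lay among the TBI values (log2 fold change -0.23, SE 0.07, adjusted p = 0.0166). The Htr5a call in cortex was lost without the 3 cortex libraries rich in Ttr (log2 fold change -0.21, adjusted p = 0.103). Htr2a fell from 1441 ± 126 to 996 ± 147 in cortex (log2 fold change -0.54, SE 0.09, adjusted p = 5.98e-04). In thalamus the Htr2a means were 111 ± 27.0 after TBI and 183 ± 35.1 after sham surgery (log2 fold change -0.73, SE 0.17, adjusted p = 0.00466).

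Htr1f, an inhibitory receptor known as a target of antimigraine drugs, had the second largest fall of the 47 in thalamus. It measured 6.88, 17.47 and 28.12 in TBI and 32.91, 39.45 and 52.53 in sham thalamus (log2 fold change -1.31, SE 0.29, adjusted p = 0.00281). The groups did not overlap, at counts that are low in both. In cortex Htr1f ran from 42.66 over 52.56 to 74.02 in TBI rats and from 51.67 over 72.93 to 92.47 in sham-operated rats and was not called (log2 fold change -0.40, 95% interval -0.75 to -0.05, adjusted p = 0.0812).

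The remaining serotonin receptors called were lower in 1 region each. Htr1a, the somatodendritic inhibitory receptor, had means of 403 ± 85.4 in TBI and 512 ± 56.8 in sham cortex (log2 fold change -0.36, adjusted p = 0.0351). Htr7, which raises cyclic AMP, had 296 ± 37.3 and 358 ± 42.3 in cortex (log2 fold change -0.28, adjusted p = 0.0466). The Htr1a call was lost without TBI rat 22, 24, 45 or 52 or sham rat 26, 32, 34 or 50 (log2 fold changes from -0.44 to -0.30 over the 12 libraries left out), and the Htr7 call without TBI rat 22, 24, 45 or 56 or sham rat 34, 38, 50 or 55 (-0.33 to -0.22). Both calls were also lost with all 24 libraries in 1 fit (adjusted p = 0.117 for Htr1a and 0.0736 for Htr7) and without the Ttr-rich libraries (0.218 and 0.169), and that of Htr7 under TMM scaling (0.0564) and with no filter on low values (0.0653). In thalamus Htr7 had 1368 ± 268 and 1631 ± 190 (log2 fold change -0.27, 95% interval -0.53 to -0.01, adjusted p = 0.0965). Htr1b, an inhibitory receptor, fell in thalamus from 991 ± 148 to 766 ± 63.2 (log2 fold change -0.36, adjusted p = 0.00897), and Htr6, which raises cyclic AMP, fell from 57.2 ± 17.2 to 31.8 ± 8.98 (log2 fold change -0.83, adjusted p = 0.0128). The calls of Htr1b, Htr2a and Htr6 in thalamus were lost without the 3 sham libraries rich in Adora2a, where their log2 fold changes were -0.20 (adjusted p = 0.155), -0.60 (0.0640) and -0.51 (0.183).

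Htr2c, abundant in choroid plexus and thalamus, was not called. Its thalamic means were 7280 ± 2593 after TBI and 6230 ± 1416 after sham surgery (log2 fold change 0.20, 95% interval -0.20 to 0.59, adjusted p = 0.436), and the thalamus library of TBI rat 45, which held 229743 of Ttr, stood at 12544 against a group median of 6306. The 10 choroid plexus markers summed to 920.2 to 268662 in TBI and 751.8 to 111311 in sham thalamus. Htr3a, a subunit of the serotonin-gated channel, Htr4 and Htr1d were not called in either region. Htr5b was tested in thalamus only.

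Dopamine receptors gave the largest change of the 47 in 1 gene. Drd1, the excitatory dopamine receptor that raises cyclic AMP, ran from 157.6 over 280.4 to 462.6 in TBI thalamus and from 643.5 over 806.8 to 1141 in sham thalamus. It was 3.17-fold lower (log2 fold change -1.66, SE 0.22, adjusted p = 5.80e-05), and all TBI values lay below all sham values. Without the 3 sham thalamus libraries rich in Adora2a the log2 fold change was -1.46 (adjusted p = 0.00312). In cortex Drd1 ran from 227.1 over 305.2 to 875.8 in TBI rats and from 300.2 over 344.4 to 368.1 in sham-operated rats. It was not called there (log2 fold change 0.09, 95% interval -0.42 to 0.60, adjusted p = 0.809), and the top value belonged to rat 24, the cortex library with the most Adora2a. Leaving out that library turned the cortex value to -0.17 (adjusted p = 0.359).

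Drd3 and Drd5 did not pass the test in either region. Drd3 had means of 131 ± 25.2 in TBI and 123 ± 19.7 in sham thalamus, and Drd5 had 91.7 ± 20.8 and 90.7 ± 13.1. In cortex, limma called 0 of the 3 tested dopamine receptors, as did edgeR, and 0 had an unadjusted p under 0.05. Markers of striatum, where Drd1 is dense, were tested beside it: 2 of 7 were lower in TBI thalamus, Adora2a (log2 fold change -0.89, adjusted p = 0.0145) and Rarb (-0.40, adjusted p = 0.00855). The summed striatal markers ran from 6675 to 9522 in TBI and 5707 to 12346 in sham thalamus. In the same libraries 6 of 8 thalamic relay markers were lower, with sums of 62745 to 75896 against 82055 to 115972, as were 3 of 6 tested cortical projection markers, with sums of 8929 to 12221 against 12928 to 21006. The part of these tissues in the receptor results beyond the library exclusions given was not tested.

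Whether the TBI effect differed between cortex and thalamus was asked with an interaction term in 1 fit of the 24 libraries. A difference was called at 5 of 39 receptors, each with the lower effect in thalamus, where 4.54% of all 15678 tested loci had a lower and 2.72% a higher effect in thalamus. Drd1 differed by -1.75 on the log2 scale (SE 0.35, adjusted p = 0.00304), Chrm4 by -1.0 (SE 0.28, adjusted p = 0.0306) and Adra1d by -0.99 (SE 0.22, adjusted p = 0.00714). Adrb1 differed by -0.57 (SE 0.12, adjusted p = 0.00618) and Chrnb2 by -0.34 (SE 0.09, adjusted p = 0.0162). Adrb1 and Chrnb2 were lower in both regions and more so in thalamus, whereas the cortex values of Drd1, Chrm4 and Adra1d were not called. No receptor had a called effect that was higher in thalamus by limma or edgeR, and 2 had one at an unadjusted p under 0.05. The Chrm4 difference was lost without the libraries rich in Adora2a (-0.56, adjusted p = 0.222), under limma-voom (adjusted p = 0.0991) and without the cortex library of rat 24, 52, 32 or 50 or the thalamus library of rat 24 or 63 (-1.11 to -0.82 over the 24 libraries left out), and the Chrnb2 difference without those rich in Ttr (-0.31, adjusted p = 0.0877). With the rat as a block 6 receptors were called, the added one being Htr6.

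In sham-operated rats the receptors divided between the regions. Of 39 tested receptors 18 were higher and 17 lower in thalamus than in cortex, where 33.9% of all 15582 tested loci were higher and 28.3% lower. Acetylcholine receptors spanned the widest range. Chrm1 had a mean of 7807 ± 532 in cortex and 148 ± 99.5 in thalamus (log2 fold change -5.96, SE 0.31, adjusted p = 1.32e-10), and Chrm4 had 1595 ± 352 and 162 ± 67.8 (log2 fold change -3.35, adjusted p = 1.36e-09). Chrna6 went the other way, with 4.47 ± 2.43 in cortex and 269 ± 34.9 in thalamus (log2 fold change 5.73, SE 0.25, adjusted p = 1.35e-11).

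The high-affinity nicotinic pair was thalamic in sham-operated rats. Chrna4 was 5.29-fold higher in thalamus (log2 fold change 2.40, SE 0.06, adjusted p = 2.50e-14) and Chrnb2 2.83-fold (log2 fold change 1.5, SE 0.05, adjusted p = 1.81e-12), whereas Chrna7 was 1.77-fold lower (log2 fold change -0.82, adjusted p = 8.07e-08). Chrna3 and Chrnb4 were thalamic, at 1663 ± 832 against 122 ± 45.9 and 548 ± 324 against 14.7 ± 3.46, and Chrna5, on the same span as Chrna3, was cortical, at 28.0 ± 14.4 in thalamus against 359 ± 75.0 in cortex (log2 fold change -3.75, adjusted p = 3.75e-09). Because Chrna3 and Chrna5 share a span in the annotation, fragments could be assigned to either. Chrna3 and Chrnb4 also varied between thalamus libraries with the habenular gene Gpr151, as described below.

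Noradrenaline receptors were mostly cortical. Adra2b went the other way, with 987 ± 162 in thalamus and 15.2 ± 8.77 in cortex (log2 fold change 6.11, SE 0.31, adjusted p = 1.18e-10). Adra1a, Adra1d, Adra2a, Adra2c and Adrb1 were all lower in thalamus, from 1.62-fold at Adra2a to 8.94-fold at Adra2c. Adrb3 had 14.6 ± 6.61 in cortex and 2.15 ± 2.37 in thalamus.

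Serotonin and dopamine receptors also differed by region. Htr2a, Htr1a, Htr6, Htr3a and Htr1f were cortical, led by Htr2a at 1441 ± 126 in cortex and 183 ± 35.1 in thalamus (log2 fold change -2.99, adjusted p = 4.52e-12). Htr2c, Htr7, Htr4, Htr5b and Htr1b were thalamic, with Htr7 at 1631 ± 190 against 358 ± 42.3 (log2 fold change 2.19, adjusted p = 6.31e-12). Htr5a did not pass the test between regions (log2 fold change -0.05, 95% interval -0.21 to 0.11, adjusted p = 0.607), nor did Htr1d, Chrnb1 and Chrna1. All 3 tested dopamine receptors were thalamic. Drd3 had 123 ± 19.7 against 18.1 ± 4.97, Drd5 had 90.7 ± 13.1 against 13.5 ± 4.75, and Drd1 had 858 ± 183 against 339 ± 28.6. Adora2a ran from 247.9 to 903.1 in sham thalamus and from 133.8 to 176.5 in sham cortex. Without the libraries rich in Adora2a, 0 of the receptor calls between regions were lost. The part of habenular tissue, and of striatal tissue beyond that exclusion, in the regional differences was not tested.

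**Figure D3:**
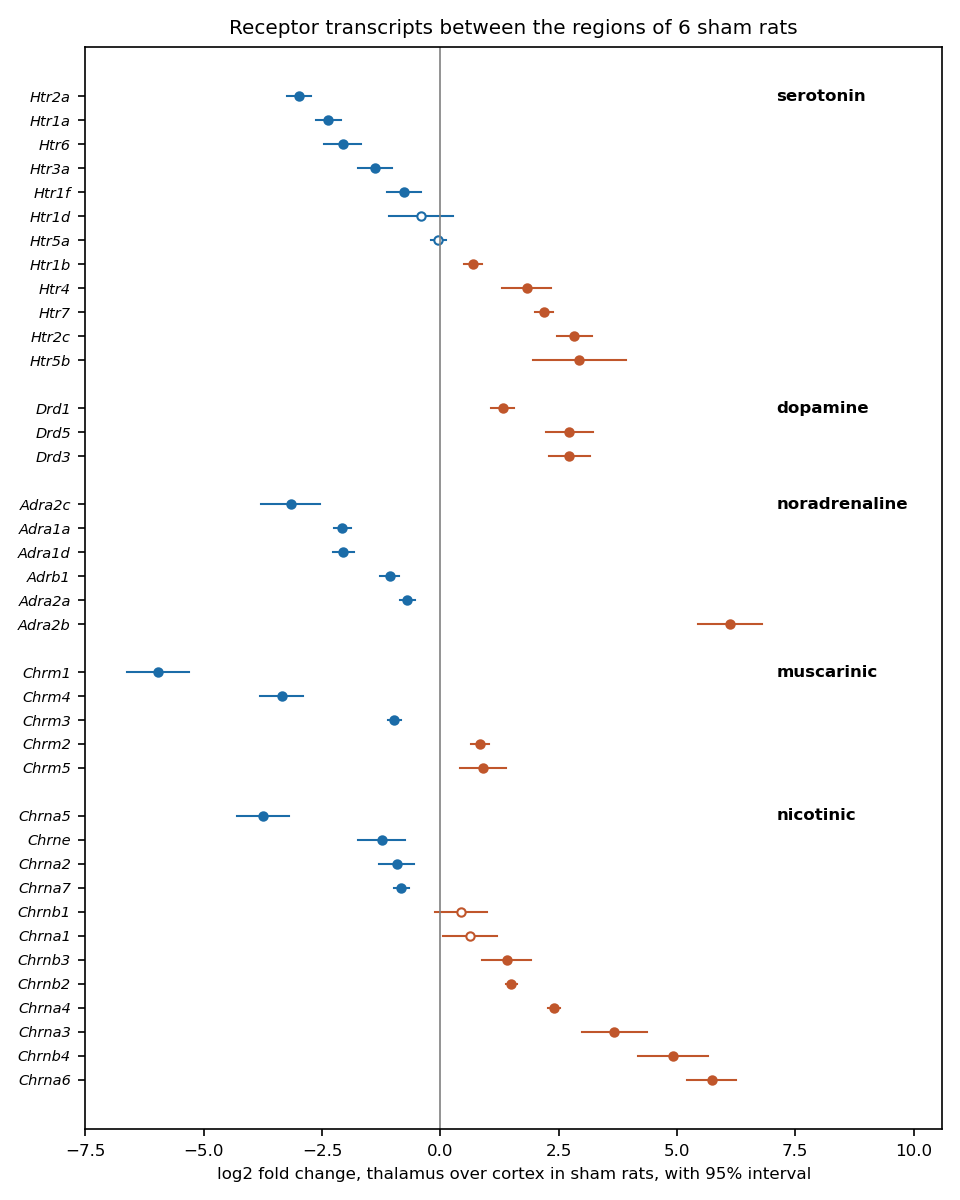
Log2 fold change of the tested receptors reported here, thalamus over cortex in the 6 sham-operated rats (x axis), with its 95% interval, ordered within each transmitter; red is higher and blue lower in thalamus, and open points have an adjusted p of 0.05 or more. Values run from -5.96 at Chrm1 to 6.11 at Adra2b, and most points are filled.

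A group of receptors varied between thalamus libraries together with a marker gene of the habenula, a small nucleus beside the thalamus whose neurons express Chrna3, Chrnb3, Chrnb4 and Htr5b. The RefSeq promoters of the neighbouring genes Chrna3 (chr8:64311252-64311501, minus strand) and Chrnb4 (chr8:64333110-64333359, minus strand) are shown because these genes moved together, in the same form and with GC boxes in capitals.
Chrna3: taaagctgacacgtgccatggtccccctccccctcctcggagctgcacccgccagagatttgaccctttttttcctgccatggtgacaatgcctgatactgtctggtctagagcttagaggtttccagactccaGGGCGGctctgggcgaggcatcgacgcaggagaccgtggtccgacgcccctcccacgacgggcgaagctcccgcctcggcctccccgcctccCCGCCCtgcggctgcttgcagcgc
Chrnb4: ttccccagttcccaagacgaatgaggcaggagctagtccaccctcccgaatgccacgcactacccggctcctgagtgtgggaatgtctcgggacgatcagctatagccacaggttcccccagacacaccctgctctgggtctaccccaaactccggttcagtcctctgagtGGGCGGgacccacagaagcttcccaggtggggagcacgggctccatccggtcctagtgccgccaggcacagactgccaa
The windows held 2 GC boxes for Chrna3 and 1 for Chrnb4.

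Gpr151, a receptor gene of habenular neurons, ranged from 228 in sham rat 26 to 2042 in TBI rat 45 among the 12 thalamus libraries. Chrnb4 ranged with it from 175.7 to 1538, Chrna3 from 677.8 to 4223, Chrnb3 from 391.4 to 2572 and Htr5b from 12.41 to 210.3, and all 4 were lowest in sham rat 26 and highest in TBI rat 45. Pearson's r with Gpr151, on log2(normalized count + 1), was 0.992 for Chrna3 (rho 0.972), 0.992 for Chrnb4 (rho 0.993), 0.971 for Htr5b (rho 0.895) and 0.933 for Chrnb3 (rho 0.930) over 12 libraries. The permutation p of r was 1e-05, the smallest that 100000 permutations can give, for Chrna3, Chrnb4 and Htr5b (adjusted p = 1.30e-04 over 39 relations) and 5e-05 for Chrnb3 (adjusted p = 4.88e-04). For rho the permutation p was 2e-05, 1e-05, 1.30e-04 and 7e-05 for Chrna3, Chrnb4, Htr5b and Chrnb3 (adjusted p = 3.90e-04, 3.90e-04, 0.00127 and 9.10e-04). Without the 2 libraries farthest from the median of Gpr151 on the log2 scale (sham rats 26 and 32), r was 0.981, 0.987, 0.949 and 0.900 in that order, with TBI rat 45, the highest library, still included. Within the 6 TBI libraries alone r was 0.994, 0.981, 0.962 and 0.948, and within the 6 sham libraries 0.995, 0.994, 0.969 and 0.984.

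Of the 39 receptors tested, 7 had a positive and 2 a negative r with an adjusted permutation p under 0.05. The share of all loci with such a relation to Gpr151 was not counted, so these numbers describe no trait of receptors. Chrna5 (r 0.857), Htr3a (0.836) and Htr2c (0.705, and 0.522 without the 2 farthest libraries) were the other positive ones, and Htr7 and Chrna6 the negative ones. In TBI against sham thalamus none of Chrna3, Chrnb4, Chrnb3 and Htr5b was called by limma or edgeR, with log2 fold changes of 0.57 for Chrna3 (95% interval -0.16 to 1.29, adjusted p = 0.213), 0.78 for Chrnb4 (-0.03 to 1.59, adjusted p = 0.127), 0.43 for Chrnb3 (-0.31 to 1.17, adjusted p = 0.362) and 0.89 for Htr5b (-0.24 to 2.02, adjusted p = 0.213). Without sham rat 38 Chrnb4 was called (log2 fold change 1.01, adjusted p = 0.0431). Gpr151 had a log2 fold change of 0.79 (adjusted p = 0.158). Chrnb4 stood at 79.9% ± 7.67 of Gpr151 in sham and 79.1% ± 7.88 in TBI thalamus (SD, n = 6). The same ratio was 258% ± 46.3 and 217.5% ± 13.9 for Chrna3, and 136% ± 35.3 and 104% ± 17.9 for Chrnb3. For Htr5b it was 8.45% ± 2.23 and 9.03% ± 1.80, and differences in these ratios were not tested. Gpr151 itself had an SD of 459 around a mean of 710 in sham and 527 around 1098 in TBI thalamus. The lowest adjusted p of the 5 habenula markers in the files was 0.0620, at Tac1. The summed level of these markers ran from 14447 to 20612 in TBI and from 12792 to 15154 in sham thalamus. Calb2, the most abundant of the 5, did not follow Gpr151. It was lowest in sham rat 38 (6832, with Gpr151 at 1391) and highest in TBI rat 56 (15698, with Gpr151 at 848.4). Nr4a2 (346.5 to 1156) and Lrrc55 (1441 to 6264) were, like Gpr151, lowest in sham rat 26 and highest in TBI rat 45. Tac1 was lowest in sham rat 32 (392.8) and highest in TBI rat 45 (861.6). The relations were chosen after the values had been seen.

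**Figure D4:**
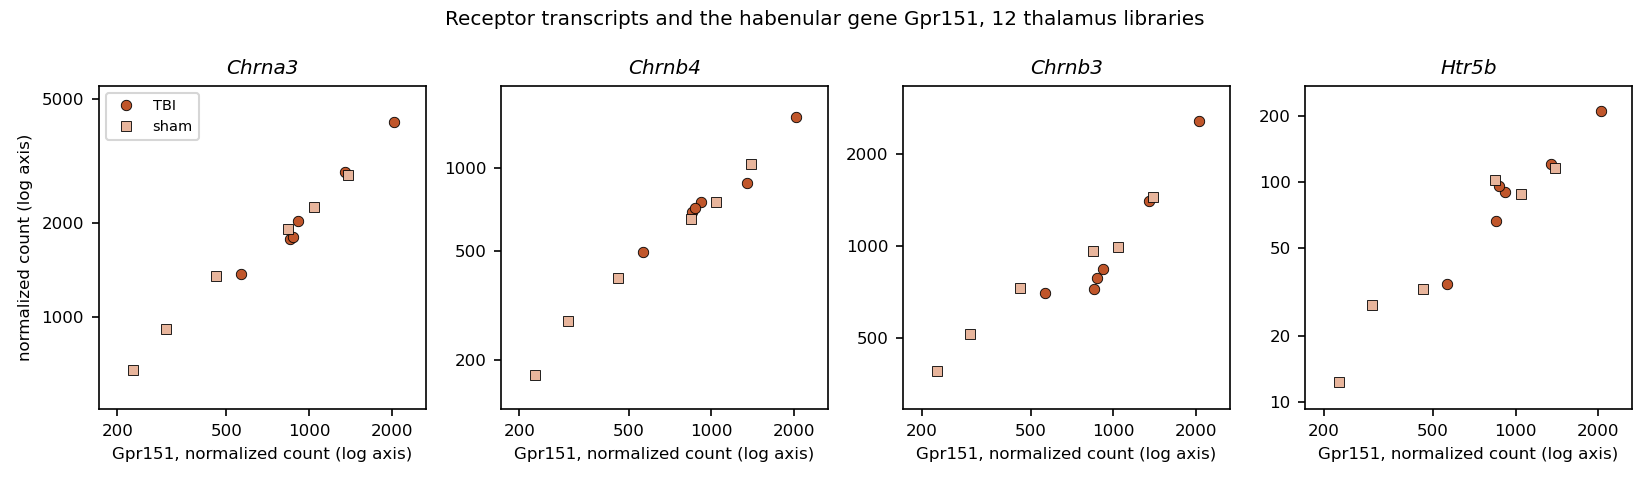
Normalized counts of Chrna3, Chrnb4, Chrnb3 and Htr5b (y axes) against Gpr151 (x axes) in the 12 thalamus libraries, both axes on a log scale; circles are TBI and squares sham-operated rats. The points of both groups follow 1 line, from sham rat 26 at 228 of Gpr151 to TBI rat 45 at 2042.

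Relations with Adora2a among the 6 sham thalamus libraries did not pass adjustment. Pearson's r with Adora2a, on log2(normalized count + 1), was 0.938 for Chrm4 (rho 0.886), 0.916 for Htr6 (rho 0.886), 0.893 for Htr1b (rho 1) and 0.857 for Drd1 (rho 0.829), with exact permutation p of 0.0139, 0.0139, 0.00972 and 0.0292 for r and 0.0333, 0.0333, 0.00278 and 0.0583 for rho. None of 39 such relations had an adjusted permutation p under 0.05, those of the 4 receptors being 0.149, 0.149, 0.149 and 0.228 for r and 0.433, 0.433, 0.108 and 0.455 for rho, and 7 had an unadjusted one for r, of which 6 were positive. These 4 were picked after their values were seen, and Chrm1 had the second highest r (0.927, exact permutation p = 0.0153, adjusted p = 0.149). Relations of all other loci with Adora2a were not computed. Without the 2 libraries farthest from the median on the log2 scale (sham rats 26 and 34) r was 0.741 for Chrm4, 0.858 for Htr6, 0.864 for Htr1b and 0.507 for Drd1. All 6 TBI thalamus libraries held 182 to 244 of Adora2a, below the lowest sham library at 248. Drd1 was 157.6 to 462.6 in the TBI and 643.5 to 1141 in the sham thalamus libraries. No sham library lay in the TBI range of Adora2a, so the groups could not be compared at like levels of it. Beyond the library exclusion given, the part of striatal tissue in the Drd1 result was not tested.

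**Figure D5:**
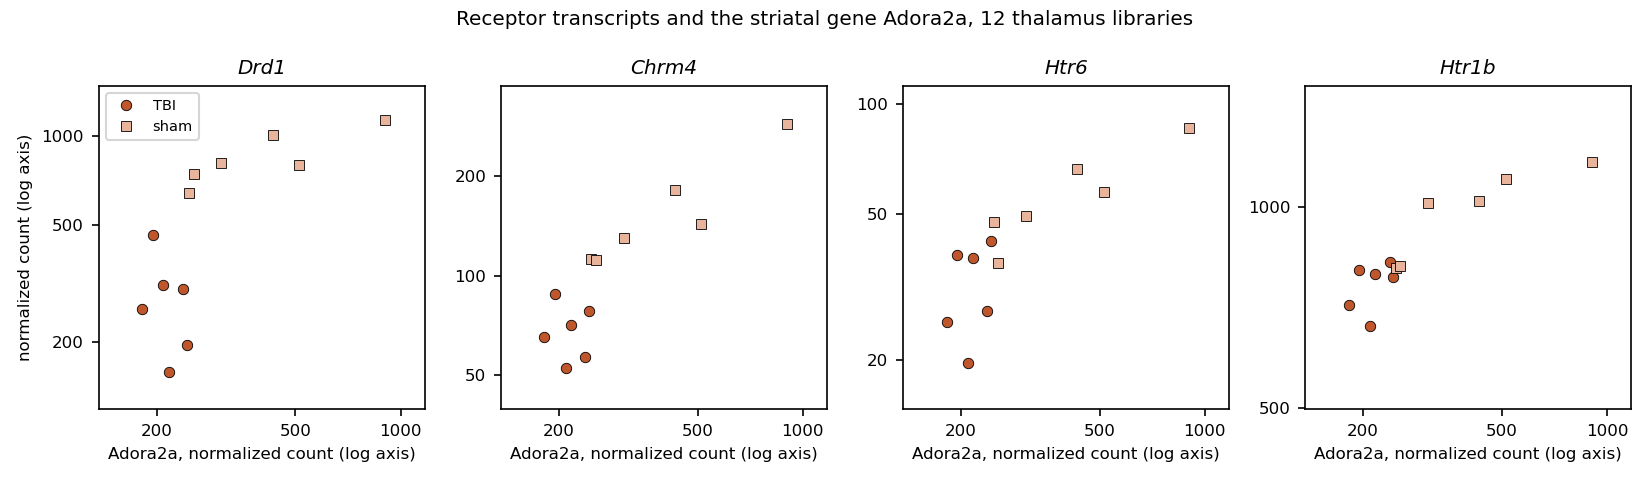
Normalized counts of Drd1, Chrm4, Htr6 and Htr1b (y axes) against the striatal gene Adora2a (x axes) in the 12 thalamus libraries, both axes on a log scale; circles are TBI and squares sham-operated rats. The TBI points lie between 182 and 244 of Adora2a and the sham points between 248 and 903, so the groups share no range of Adora2a.

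Genes that make, carry and break down the transmitters were followed beside the receptors. In the serotonin list Tph2, the neuronal enzyme of serotonin synthesis, was the 1 gene tested in cortex and was 2.41-fold lower there at low counts (log2 fold change -1.27, SE 0.25, adjusted p = 0.00180). The enzyme Maob, which oxidizes monoamines, was higher in both regions, by 0.35 on the log2 scale in cortex (adjusted p = 5.63e-04) and 0.49 in thalamus (adjusted p = 1.79e-04). Th, the rate-limiting enzyme of catecholamine synthesis, was the 1 of 5 catecholamine genes high enough to test and was not called (adjusted p = 0.584 in cortex and 0.971 in thalamus). Of 6 genes of shared monoamine handling, 2 were higher and 1 lower in cortex and 4 higher in thalamus. Ache, which hydrolyses acetylcholine, was lower in thalamus (log2 fold change -0.41, adjusted p = 0.00364) and was the 1 of 4 acetylcholine handling genes called there.

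Genes that act on or after the receptors changed in both directions. Of 7 nicotinic chaperones and modulators, 4 were lower in cortex, and 3 were lower and 1 higher in thalamus. Lynx1, a membrane protein that binds nicotinic receptors and limits their activity, fell in both regions (log2 fold change -0.53 in cortex, adjusted p = 7.36e-05, and -0.63 in thalamus, adjusted p = 4.26e-05). Ric3, a nicotinic chaperone, fell by 0.17 on the log2 scale in cortex and by 0.19 in thalamus (adjusted p = 0.0440 and 0.00960). Of 10 G protein alpha subunits, 2 were lower and 1 higher in cortex, and 4 were lower and 3 higher in thalamus. Gnal, the subunit that carries Drd1 signals to adenylyl cyclase in striatum, was lower in thalamus (log2 fold change -0.59, adjusted p = 5.12e-05) and differed between the regions (-0.91, adjusted p = 0.00518). Gna14, a subunit that acts through phospholipase C, was higher after TBI in thalamus (log2 fold change 0.98, adjusted p = 0.0251). Its counts there were low, at 15.24 to 23.47 in TBI and 3.185 to 15.02 in sham-operated rats.

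Of 9 adenylyl cyclases, 4 were lower and 2 higher in each region. Adcy1, a neuronal cyclase stimulated by calmodulin, was lower in cortex (log2 fold change -0.34, adjusted p = 0.00109) and thalamus (-0.87, adjusted p = 1.65e-05), and Adcy4 and Adcy7 were higher in both (0.58 and 0.57 in cortex, adjusted p = 0.00987 and 6.76e-04; 0.99 and 0.62 in thalamus, adjusted p = 2.85e-05 and 4.47e-04). Plcb4, a phospholipase C that muscarinic and other Gq-coupled receptors use, was lower in both (log2 fold change -0.54 in cortex, adjusted p = 2.50e-04, and -0.61 in thalamus, adjusted p = 1.74e-04). Of the 3 phospholipases of this type tested, 2 were lower and 1 higher in cortex, and 1 was lower and 1 higher in thalamus. Of 7 PKA subunits and DARPP-32 3 were lower in each region, and of 6 receptor kinases and arrestins 1 was lower in cortex, with 2 lower and 1 higher in thalamus.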

How the data were processed

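Polyadenylated RNA of perilesional cortex and ipsilateral thalamus was measured in 24 stranded libraries. The authors aligned reads with TopHat2 2.0.11 and Bowtie2 2.2.2 and assembled loci with Cufflinks 2.2.1, per the labels' processing notes. The labels name the build Rnor_5.0 and the methods RGSC3.4 with an Rnor_5.0 annotation; whether counting used strand is not given in the sources used here. The deposited signal is a table of fragment counts divided by a size factor per library. Dividing by the smallest step recovered whole fragments, within 0.1 fragment, for 99.969% to 99.988% of values. Floors (3 fragments) cover counting error only. Loci without a name (37.1%) were left out.

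Groups came from the labels. limma 3.58.1 in R 4.3.3 (lmFit, eBayes with a mean trend, two-sided) was run on log2(normalized count + 1) for named loci whose mean reached 10 in the compared libraries. Adjustment was by Benjamini-Hochberg over all loci tested, with a threshold of 0.05. Comparisons were TBI against sham within each region, the interaction, and thalamus against cortex in sham rats. The last 2 were fitted without a block. Cortex and thalamus were paired by rat: the deviations of a rat's pair of libraries correlated with a median of 0.187 (0.00393 to 0.569), over 0.1 in 10 of 12 rats. Relations with Gpr151 and Adora2a were computed on log2(normalized count + 1) and used 100000 permutations, or all orders within 6 libraries, two-sided.

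Alternatives were TMM scaling, edgeR 4.0.16 (quasi-likelihood) on recovered fragments, limma-voom, other filters and pseudocounts, 1 fit of all libraries, the block, and leaving out each library; leaving out libraries over 400 of Adora2a or 5000 of Ttr was chosen after seeing the data. Library values are given for receptors called with no overlap of groups in either region, or called in the interaction. Further receptors were named with fold changes as called or as habenular, after values were seen. Members, marker and pathway lists were chosen with earlier results of these data known. The steps were tested on simulated data. Values of 1 receptor and 1 enzyme gene are not reported here, and both stay in the counts. Promoters are from RefSeq (GRCr8). Python 3.11.15 (pandas 2.3.3, scipy 1.17.1, matplotlib 3.10.9) served for tables, permutations and figures.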

Additional observations from a re-analysis of the deposited data

Results flagged for a closer look

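The TBI effect differed between the regions at 5 receptors in the interaction test by limma, each more negative in thalamus on the log2 scale: Drd1 (-1.75), Chrm4 (-1.0), Adra1d (-0.99), Adrb1 (-0.57) and Chrnb2 (-0.34).

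In 13 of 151 receptor groups of 6 libraries, the highest library lay apart from the rest by a larger share of the group's range than Dixon's test allows, where chance gives about 1 in 20. That rate holds for independent groups of normally distributed values, whereas these are unlogged counts of the same 24 libraries, so it is a rough guide only. The cortex library of TBI rat 24, the one richest in Adora2a, stood apart at Drd1 (875.8), Adra2c (421.7), Htr1f (74.02), Htr4 (59.88) and Htr1d (26.61). The thalamus library of TBI rat 45, the one richest in Ttr and Gpr151, stood apart at Htr2c (12544), Chrnb3 (2572), Chrnb4 (1538), Chrm1 (229.6) and Htr3a (127), and its cortex library at Chrnb3 (833.3). The thalamus library of sham rat 26, the one richest in Adora2a among thalamus libraries, stood apart at Htr1d (35.32) and Chrne (24.82). The part of other tissue in these values was not tested.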

How the results depend on the processing

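Receptors called in cortex numbered 11 as reported, 7 with all 24 libraries in 1 fit and 5 without the Ttr-rich libraries, where 2162 of all named loci were called in place of 4531. In the interaction 681 loci were called without the Adora2a-rich and 422 without the Ttr-rich libraries, in place of 1138. Leaving out 1 library gave 8 to 11 receptors in cortex, 15 to 17 in thalamus, 4 to 6 in the interaction and 35 to 38 between the regions of sham rats. Receptors gained by it were Htr1d and Htr1f (without TBI rat 24), Htr1f (sham rat 26) and Chrm5 (TBI rat 56) in cortex, Htr7 (TBI rat 56) and Chrnb4 (sham rat 38) in thalamus, Adra2a (cortex of TBI rat 24), Htr6 (cortex of sham rat 32, or thalamus of TBI rat 52 or sham rat 50), Chrna4 (thalamus of TBI rat 22) and Htr1f (thalamus of TBI rat 24) in the interaction, and Chrna1, Chrnb1 and Htr1d between the regions (thalamus of sham rat 26). It turned Drd1 in cortex to -0.17 (without TBI rat 24), within a range of -0.17 to 0.22. With the replicate block, from the pairing of both regions in a rat, 6 receptors and 1612 loci were called in the interaction and 35 receptors between the regions of sham rats, so the block changed no receptor call other than that of Htr6. edgeR called 11, 16, 5 and 36 receptors in these 4 comparisons. TMM scaling gave 9, 15, 5 and 35 and moved the median of all loci by under 0.05. Receptors under 3 fragments are limited by depth. The cause of these shifts was not tested.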

Other observations

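The locus spelled DRD2, the inhibitory dopamine receptor of striatal neurons, was lower in TBI than in sham thalamus (log2 fold change -1.39, SE 0.37, limma, Benjamini-Hochberg adjusted p = 0.0100). Its sham thalamus values were 785.7, 258 and 332 in rats 26, 32 and 38, the libraries rich in Adora2a, and 126.6 to 134.5 in the other 3, against 66.91 to 113.6 in TBI rats. The cortex library of TBI rat 24 held 886.6, against 92.88 to 121.4 in the other TBI cortex libraries.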
